A study of Rattus norvegicus with 9 samples.

Results

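The complement genes C1qa, C1qb, C1qc, C1r, C1s, C2, C3, C3ar1 and Serping1 were followed, 9 of the 35843 genes listed. They were picked by gene name, and each name stood on 1 row. RNA-seq was performed on the left ventricle of adult male Sprague-Dawley rats at day 28, with 3 rats per group. Group Sham had the operation without ligation and received saline. In group MI the left anterior descending coronary artery was tied for good, and saline was given. The treated group, MI + DAPA (1st d), written as group DAPA from here on, had the same ligation and was gavaged with dapagliflozin, an inhibitor of the sodium-glucose cotransporter SGLT2, at 1 mg/kg each day until day 28. The molecular work of the study drew mainly on the border of the infarct, with the scar removed, and on the matching part of the Sham hearts. For the RNA-seq, the paper speaks of normal myocardium in group Sham and of infarct myocardium in both ligated groups. How much border or scar these libraries held is not stated, and each library is a mixture of cell types.

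Complement is a cascade of plasma and tissue proteins that tags and lyses microbes, clears dying cells and calls in leukocytes. In the classical pathway C1q, built from the chains encoded by C1qa, C1qb and C1qc, binds its target and activates the serine proteases C1r and C1s. C1s cleaves C4 and C2, whose fragments form the convertase that cleaves C3. C3b marks surfaces, whereas the small fragment C3a acts through the receptor encoded by C3ar1. Serping1 encodes the C1 inhibitor, which inactivates C1r and C1s. Macrophages are known as a main source of C1q in tissues, and the liver as that of most circulating complement proteins.

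The C1q genes neighbour each other in the order C1qb, C1qc, C1qa in the RefSeq annotation of the rat, as do C1r and C1s, whereas C2 lies next to Cfb. RefSeq windows upstream of the start site were found for 5 of the 9 genes (C1qa, C1qb, C1r, C3 and C3ar1) in build GRCr8. In the 250 bases upstream, 4 motifs were searched on both strands. They were a PU.1 motif (GAGGAAGT), the core of the interferon-stimulated response element (GAAANNGAA), the interferon-gamma activated site (TTCNNNGAA) and an NF-kappaB motif (GGGANTTCC). The second and the third share the letters GAA, so that matches to them can overlap. Windows are shown for the neighbouring genes C1qa and C1qb, the only members with a match, which is in capitals. Both windows are on the minus strand, C1qa at chr5:154419934-154420183 and C1qb at chr5:154407828-154408077.
C1qa: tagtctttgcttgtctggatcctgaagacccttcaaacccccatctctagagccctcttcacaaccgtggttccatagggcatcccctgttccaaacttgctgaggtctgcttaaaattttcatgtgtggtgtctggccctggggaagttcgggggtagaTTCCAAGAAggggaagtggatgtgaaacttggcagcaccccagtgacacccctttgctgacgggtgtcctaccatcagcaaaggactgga
C1qb: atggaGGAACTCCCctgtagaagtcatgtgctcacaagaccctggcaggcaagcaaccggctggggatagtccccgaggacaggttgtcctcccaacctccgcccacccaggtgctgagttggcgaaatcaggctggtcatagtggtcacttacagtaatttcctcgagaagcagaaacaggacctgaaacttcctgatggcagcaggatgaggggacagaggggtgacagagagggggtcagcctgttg
The match in C1qa is to the interferon-gamma activated site, 90 to 82 bases upstream, and this motif is found in 7.67% of 33469 windows of the same length. The match in C1qb is to the NF-kappaB motif on the other strand, 245 to 237 bases upstream, and 1.43% of windows hold that motif. GAGGAAGT is in 2.04% and GAAANNGAA in 8.12% of all windows, and in 0 of the 5 member windows. These matches are descriptions of the letters. No binding was measured.

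Expression was deposited as FPKM, fragments per kilobase of gene length divided by a value for each library, a scale that permits comparison between genes. Per recovered read this divisor averaged 2.16 in group MI and 1.85 in group DAPA, with the mean of group Sham set to 1. It thus did not follow the recovered reads. The reads recovered from these values were 13597239 to 17210909 per rat. Genes of the mitochondrial genome took 63.2% ± 3.18 of them in group Sham, against 13.8% ± 6.15 in group MI and 25.6% ± 7.42 in group DAPA (SD, n = 3 each). The reads left for other genes were 5702454 to 6570698 in group Sham, against 12635945 to 13171891 in group MI and 11440726 to 12082280 in group DAPA, which makes low values least certain in group Sham. Labelled as heart, all libraries held cardiomyocyte transcripts, with Tnnt2 (cardiac troponin T) between 489 and 4410 FPKM. Differences were fitted with limma on log2(FPKM + 1), where the change of genes with low values comes out too small. A gene was called when its unadjusted limma p was under 0.05 and its absolute log2 fold change over 1. The Benjamini-Hochberg adjusted p over all genes tested is given beside it.

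All 9 complement genes rose in group MI over group Sham, and no rat of group MI overlapped with a rat of group Sham in any of them. The members called higher were 9 of 9, against 12.1% of the 13485 genes tested. With adjusted p-values in place of unadjusted ones they were also 9 of 9, against 11.5% of all genes. The groups were apart in the same direction in 27.1% of all genes. The median log2 fold change of the members was 3.12, and that of all genes tested was -0.01.

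The mean levels of the C1q chains were 26.5 to 46.5 FPKM in group Sham, with 260 to 313 FPKM after ligation alone and 144 to 184 FPKM with DAPA. C1qa had 63.5, 24.2 and 22.6 FPKM in the Sham rats, 200, 483 and 257 FPKM in the MI rats, and 123, 117 and 311 FPKM in the rats of group DAPA, in the order of their replicate numbers. C1qb had 37.0, 21.6 and 21.1 FPKM in group Sham, 202, 385 and 193 FPKM in group MI, and 121, 108 and 203 FPKM in group DAPA. C1qc had 59.8, 45.7 and 34.1 FPKM in group Sham, 241, 435 and 233 FPKM in group MI, and 131, 118 and 285 FPKM in group DAPA. In each chain the second MI rat was the highest of all rats, and the third DAPA-treated rat was above the other DAPA-treated rats and above 2 of the MI rats. The log2 fold change in MI vs. Sham was 3.12 for C1qa (SE 0.47, limma adjusted p = 0.00321), 3.22 for C1qb (SE 0.33, limma adjusted p = 0.00123) and 2.65 for C1qc (SE 0.30, limma adjusted p = 0.00148). The summed level of the 3 chains was 77.8 to 160.3 FPKM in group Sham, against 644 to 1303 FPKM in group MI and 342 to 798 FPKM in group DAPA. C1qc made up 43.7% ± 6.35 of this sum in group Sham, against 35.0% ± 2.20 in group MI and 35.0% ± 0.678 in group DAPA (SD, n = 3 each). The first Sham rat, at 37.3%, was within the range of group MI, 33.4% to 37.5%. In group MI the share was 35.3% ± 3.61 for C1qa and 29.8% ± 1.56 for C1qb. In group DAPA it was 35.3% ± 3.26 for C1qa and 29.7% ± 3.79 for C1qb.

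The proteases of the C1 complex rose as well. C1r had 45.1, 30.2 and 27.9 FPKM in group Sham, 289, 361 and 209 FPKM in group MI, and 171, 140 and 299 FPKM in group DAPA. C1s had 34.6, 24.4 and 20.8 FPKM in group Sham, 240, 438 and 179 FPKM in group MI, and 151, 108 and 256 FPKM in group DAPA. Both groups of ligated rats lay above group Sham without overlap in both genes, whereas the ranges of group MI and group DAPA overlapped. In MI vs. Sham the log2 fold change was 3.02 for C1r (SE 0.26, limma adjusted p = 0.000953) and 3.31 for C1s (SE 0.34, limma adjusted p = 0.00128). The ratio of C1r to C1s in FPKM was 1.24 to 1.34 in group Sham, against 0.823 to 1.20 in group MI and 1.14 to 1.298 in group DAPA, and the second MI rat was the only rat with more C1s than C1r.

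Serping1, the gene of their inhibitor, had the highest mean level of the 9 members in each group. It had 86.4, 30.8 and 57.4 FPKM in group Sham, 416, 680 and 367 FPKM in group MI, and 295, 212 and 440 FPKM in group DAPA. Its log2 fold change in MI vs. Sham was 3.11 (SE 0.40, limma adjusted p = 0.00203), close to those of the proteases. The ratio of Serping1 to the sum of C1r and C1s was 0.943 ± 0.332 in group Sham, against 0.860 ± 0.0795 in group MI and 0.855 ± 0.0616 in group DAPA (SD, n = 3 each), and the differences between these means were within the SD of group Sham.

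C2 and C3, the substrates further down the cascade, were low in group Sham and rose in group MI. C2 had 0.624, 0.449 and 0.0436 FPKM in group Sham, from 17, 12 and 1 reads. It had 7.79, 35.4 and 11.8 FPKM in group MI, and 3.98, 1.86 and 12.7 FPKM in group DAPA. The third DAPA-treated rat was within the range of group MI, and the other two were below it. C3 had 0.810, 1.05 and 0.306 FPKM in group Sham, from 44, 56 and 14 reads. It had 8.74, 105.5 and 17.4 FPKM in group MI, and 3.57, 2.32 and 6.03 FPKM in group DAPA. For C3 the 3 groups did not overlap with each other. The second MI rat had 8.07 times the mean of the other two MI rats in C3, where this ratio was 1.45 to 3.61 in the other 8 members. In MI vs. Sham the log2 fold change was 3.57 for C2 (SE 0.50, limma adjusted p = 0.00269) and 3.98 for C3 (SE 0.80, limma adjusted p = 0.00864). The ratio of the group means in FPKM was 49.3 for C2 and 60.7 for C3, larger than the fold changes of 11.9 and 15.8 on the log2(FPKM + 1) scale. The second MI rat set much of this. Without it the ratios were 26.4 for C2 and 18.1 for C3, and the log2 fold changes 2.98 for both, still called. C3 stayed well under the C1 proteases, at 3.02%, 29.2% and 8.33% of C1r in the MI rats.

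C3ar1, the receptor of C3a, was the lowest member in group MI. It had 0.850, 0.385 and 0 FPKM in group Sham, from 18, 8 and 0 reads. It had 5.01, 8.48 and 4.49 FPKM in group MI, and 4.19, 2.31 and 5.44 FPKM in group DAPA. The ligated rats were above the Sham rats in both groups, and the MI and DAPA-treated rats overlapped. The log2 fold change in MI vs. Sham was 2.31 (SE 0.31, limma adjusted p = 0.00245).

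**Figure D1:**
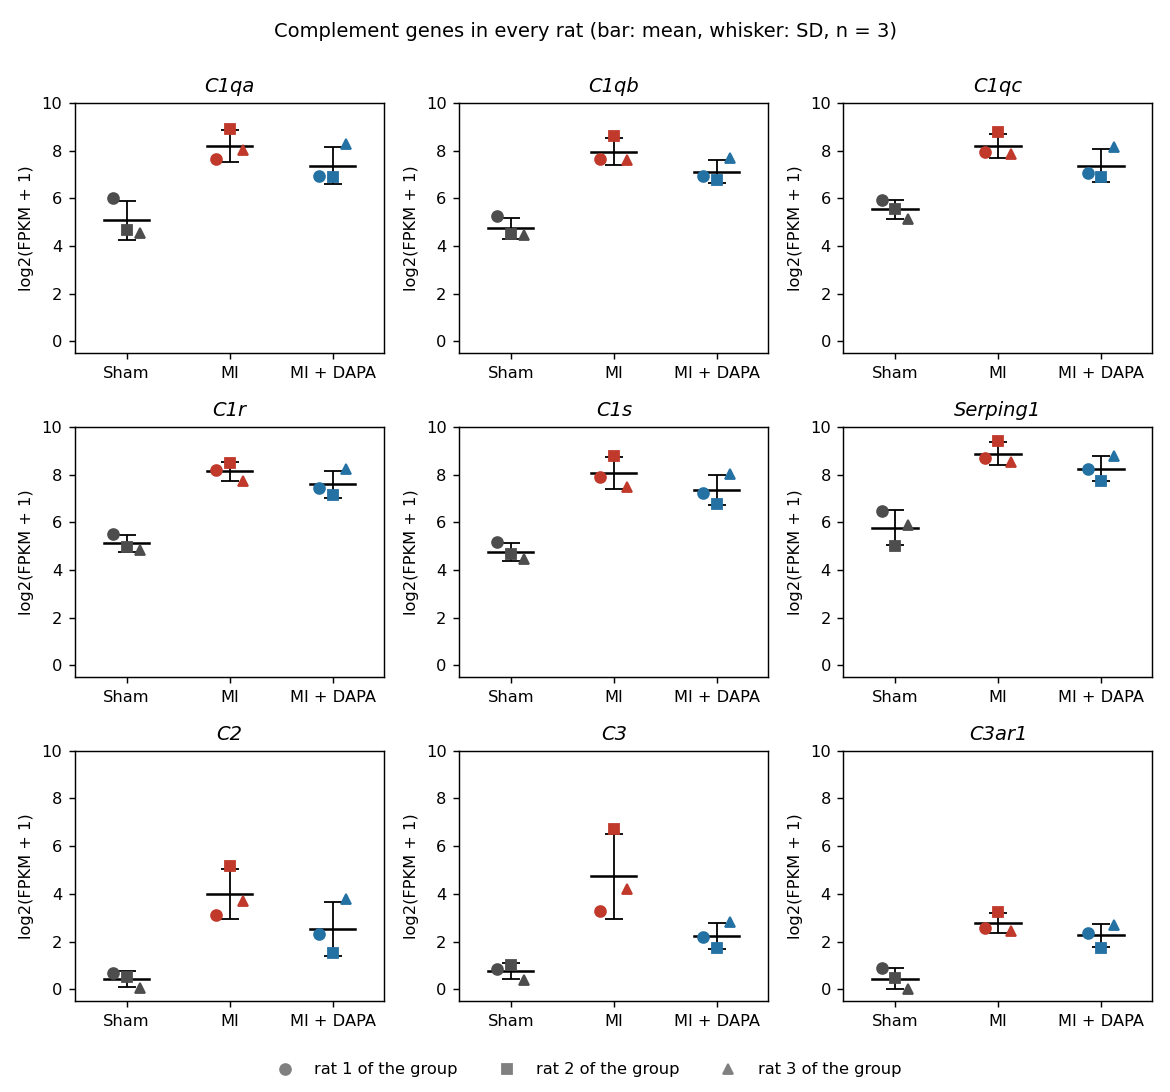
log2(FPKM + 1) of the 9 complement genes in each rat of group Sham, group MI and group DAPA. Bars are means and whiskers are SD (n = 3). The second MI rat (square) is the highest of all rats in every panel, and in C3 the MI rats lie above all DAPA-treated rats.

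Compared with group MI, the mean of each of the 9 members was lower with DAPA, and C3 was the only one called. C3 fell by 2.49 on the log2 scale (SE 0.83, 95% interval -4.47 to -0.52), and its mean in FPKM was 9.05% of that in group MI, or 30.4% without the second MI rat. Its limma p adjusted over the 13251 genes tested was 0.558, so the difference did not pass the correction. The members called lower were thus 1 of 9, against 1.11% of all genes, and 0.951% of all genes were called higher. C3 was also the only member in which every DAPA-treated rat was below every MI rat, which held for 7.16% of all genes. The smallest adjusted p of any gene in this comparison was 0.558 as well, and 1125 genes had an unadjusted limma p under 0.05. Without the second MI rat, C3 fell by 1.497 and was still called. Without the first or the second DAPA-treated rat the call was lost, with log2 fold changes of -2.47 and -2.24.

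The other 8 members did not pass the criteria. Their log2 fold changes with DAPA were -1.47 for C2 (95% interval -3.12 to 0.19), -0.82 for C1qa (-1.95 to 0.31), -0.83 for C1qb (-1.67 to 0.01) and -0.82 for C1qc (-1.78 to 0.14). They were -0.73 for C1s (95% interval -1.73 to 0.28), -0.64 for Serping1 (-1.47 to 0.20), -0.53 for C1r (-1.33 to 0.27) and -0.50 for C3ar1 (-1.24 to 0.24). Each of these intervals holds both no change and a fall to below 50% of the level in group MI. The direction was the same in all 9 members, with a median of -0.82, where 52.8% of all genes tested were below 0 and the median of all genes was -0.02. The 9 members moved together from rat to rat, so that they do not count as 9 separate observations.

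The spread inside the groups was shared by the members. The second MI rat was the highest of the 9 rats in 9 of 9 members. The first and the second DAPA-treated rats were below every MI rat in 9 of 9 members, and the second was the lowest of its group in all of them. The third DAPA-treated rat was the highest of its group in 9 of 9 members and above 2 of the MI rats in 8 of 9, all but C3. The shares of all genes with these patterns were not counted. The rats were set apart after their values were seen, so these counts have no reference and only describe the members. Without this rat, 6 of the 9 members were called lower with DAPA (C1qa, C1qb, C1qc, C1s, C2 and C3). Leaving out the highest rat of a group lowers its mean in these genes, and calls over all genes also rose. The share of all genes called lower in that fit is not given here. The share of reads from the mitochondrial genome was lowest in the second MI rat and, within group DAPA, in the third. It was 15.4%, 7.07% and 19.1% in the MI rats and 27.2%, 32.0% and 17.5% in the DAPA-treated rats. With the mitochondrial genome left out C3 was again the only member called. That setting only rescales each library and leaves differences in tissue between the rats in place. The part of this share in the result was not tested.

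**Figure D2:**
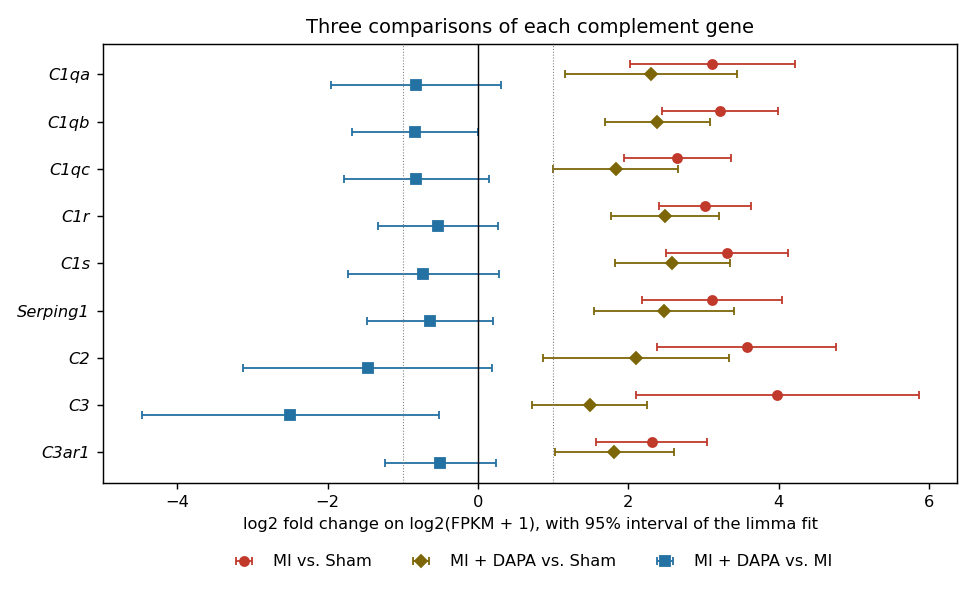
log2 fold changes on log2(FPKM + 1) of the 9 complement genes in MI vs. Sham, DAPA vs. Sham and DAPA vs. MI, with 95% intervals of the limma fit and dotted lines at -1 and 1. Against group Sham all points lie above 1, and against group MI only the interval of C3 lies below 0.

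The complement genes remained above group Sham in the DAPA-treated rats. All 9 members were called higher in group DAPA than in group Sham, against 9.54% of the 13359 genes tested, with limma adjusted p-values of 0.00275 to 0.0237. No DAPA-treated rat overlapped with a Sham rat in any member, which held for 23.2% of all genes. On the log2(FPKM + 1) scale the fold change was 1.49 for C3 (SE 0.33) and 2.58 for C1s (SE 0.33). It was 2.30 for C1qa, 2.39 for C1qb, 1.83 for C1qc, 2.49 for C1r, 2.47 for Serping1, 2.10 for C2 and 1.81 for C3ar1. The order of the members depends on this scale, which compresses those with low values. As a ratio of the group means in FPKM, the difference was 3.82 for C1qc, 5.499 for C3, 6.44 for C1s, 9.67 for C3ar1 and 16.6 for C2. Each pair of these comparisons shares a group of rats, and they are not independent of each other.

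Of 48 other complement genes looked up by name, 45 were listed, and 30 passed the filter of 1 FPKM in at least 3 rats in MI vs. Sham. Of these, 16 were called higher and 1 was called lower in group MI, against 12.1% and 10.3% of all genes. With DAPA 0 were called higher and 2 were called lower than in group MI, C6 and Cfp, against 0.951% and 1.11% of all genes. Compared with group Sham, 13 of 29 tested genes were called higher with DAPA, against 9.54% of all genes, and 1 was called lower, against 8.16%. The latter was Masp2, a protease of the lectin pathway that was chosen after its values were seen. Mbl1, Colec10, Apcs, Cfb, C8a and C8b were listed at 0 in all 9 rats.

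Among the other recognition molecules and early components, 6 of 9 tested genes rose in group MI (C4a, C4b, Colec12, Fcna, Fcnb and Ptx3), and 0 of 9 were called with DAPA. C4b, a gene for C4 and so the other substrate of C1s, had 2.28, 0.843 and 0.555 FPKM in group Sham, 55.5, 277 and 86.2 FPKM in group MI, and 31.8, 11.03 and 102 FPKM in group DAPA. Its log2 fold change was 5.72 in MI vs. Sham (limma adjusted p = 0.00123) and -1.69 with DAPA (95% interval -3.76 to 0.38), and that of C4a was 2.71 and -1.45. C4a and C4b are near-identical copies, between which reads may have been split, and both values are uncertain. Colec12, a collectin with scavenger receptor function, had a log2 fold change of 2.66 and then -0.73 with DAPA, and Fcna, a ficolin of the lectin pathway, 1.85 and then -1.27.

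In the alternative pathway, Cfd, the protease factor D, rose by 2.07 on the log2 scale in group MI (limma adjusted p = 0.0206) and differed by -1.28 with DAPA (95% interval -2.60 to 0.04). Cfp, encoding properdin, which stabilises the convertase, had 16.1, 46.7 and 22.9 FPKM in group MI, and 10.6, 10.03 and 17.9 FPKM in group DAPA. It fell by 1.01 on the log2 scale (95% interval -1.95 to -0.06, limma adjusted p = 0.558) although the ranges overlapped. Factor B (Cfb) was on 2 rows, both at 0. Whether reads were lost between rows of the same name was not tested, so that 0 need not mean absence.

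Of the terminal components, which form the membrane attack complex, C6 and C7 rose in group MI and C8g was not called. C6 had 1.56, 1.66 and 0.719 FPKM in group Sham, 14.6, 193 and 55.8 FPKM in group MI, and 2.71, 8.09 and 12.2 FPKM in group DAPA. The groups were apart from each other, as in C3. Its log2 fold change was 4.61 in MI vs. Sham (limma adjusted p = 0.00548) and -2.86 with DAPA (SE 0.91, limma adjusted p = 0.558). C7 was far more abundant, with 17.4 to 38.5 FPKM in group Sham, against 590 to 958 FPKM in group MI and 333 to 808 FPKM in group DAPA, and its log2 fold changes were 4.69 and -0.75.

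Among the regulators other than Serping1, Susd4, an inhibitor of complement activation, rose by 1.11 on the log2 scale in group MI (limma adjusted p = 0.00803). Vtn, encoding vitronectin, an inhibitor of the terminal complex, fell by 1.26 on the log2 scale in group MI (limma adjusted p = 0.00187). It had 23.2, 31.9 and 26.8 FPKM in group Sham, 10.7, 10.4 and 11.1 FPKM in group MI, and 14.8, 15.2 and 21.8 FPKM in group DAPA. The 3 groups did not overlap. In DAPA vs. MI the log2 fold change was 0.62 (95% interval 0.21 to 1.03), under the threshold of 1. Cd46, Cd55, Cd59, Clu, Cr1l and C1qbp were not called in MI vs. Sham or with DAPA. Among the receptors, 5 of 7 tested genes rose in group MI and 0 were called with DAPA. They were C5ar1 and C5ar2, the receptors of C5a, with log2 fold changes of 2.25 and 2.11, Itgb2, the beta chain of complement receptor 3, with 2.32, the endocytic receptor Lrp1 with 2.85, and Calr.

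**Figure D3:**
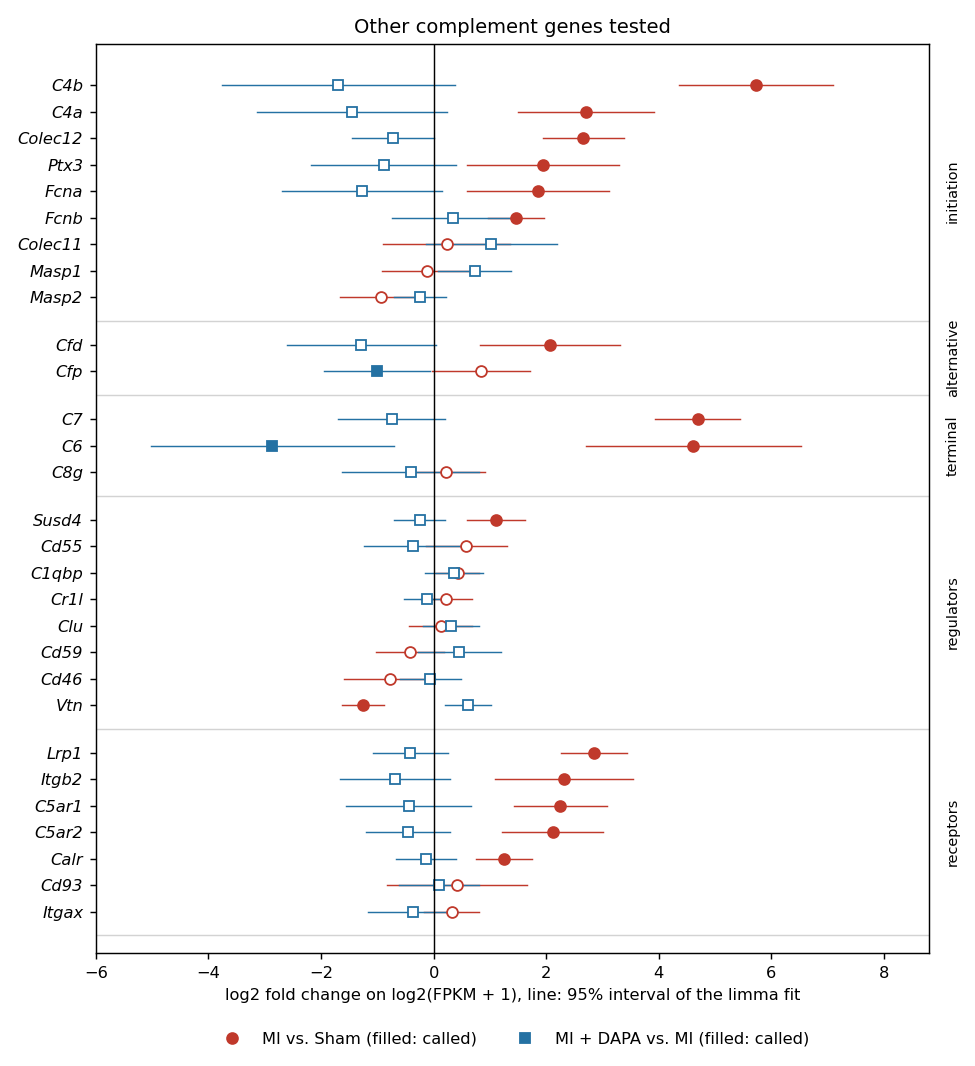
log2 fold changes on log2(FPKM + 1) of other complement genes tested, by role, in MI vs. Sham (circles) and DAPA vs. MI (squares). Lines are 95% intervals of the limma fit and filled symbols were called. Among the circles Vtn is the only filled one below 0, and 2 squares are filled, those of C6 and Cfp.

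By the median of each list, markers of macrophages, fibroblasts, B and plasma cells and T cells moved in the same direction as the complement genes. This held in MI vs. Sham and with DAPA, and the lists of the other cell types did not do so in both. In bulk tissue, a change in the number of cells and a change of RNA per cell cannot be told apart. Of 15 macrophage markers 14 were called higher in group MI (median log2 fold change 2.20) and 0 of 15 were called with DAPA (median -0.61). The summed level of the list was 109 to 403 FPKM in group Sham, against 1452 to 2470.9 FPKM in group MI and 808 to 1348 FPKM in group DAPA. The mean of the C1q chains was 3.63 ± 0.350 times Csf1r in group Sham, against 4.64 ± 0.389 in group MI and 4.08 ± 0.643 in group DAPA (SD, n = 3 each). Csf1r is the listed marker closest in profile to the C1q chains, and log2 fold changes in MI vs. Sham ranged from 0.19 to 3.58 over the list. Of 15 fibroblast markers 14 were called higher in group MI (median 2.82), and 1 was called lower with DAPA, Col1a1 (median of the list -0.51). Their summed level was 859 to 1311, 5541 to 9357 and 4142 to 6913 FPKM in group Sham, group MI and group DAPA.

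B and plasma cell markers set the second MI rat apart. The summed level of 7 markers listed was 6.1 to 12.8 FPKM in group Sham, against 35.9 to 3855 FPKM in group MI and 11.6 to 16.9 FPKM in group DAPA. Jchain, the joining chain of secreted antibodies, had 23.9, 2881 and 503 FPKM in the MI rats. Among the members this was also the order of C1qa, C2 and C3, whereas the third MI rat was the lowest of its group in 6 of 9 members. C4b, C6 and Cfp had this order too, as did others of the complement genes looked up, but C7 did not. The share of all genes with this order was not counted. The 8 T cell markers were also highest of group MI in the second rat, 8 of 8. In MI vs. Sham 2 of 4 tested B and plasma cell markers (median 3.68) and 3 of 8 T cell markers (median 1.47) were called higher. With DAPA 2 B and plasma cell markers of 3 tested (median -4.20) and 2 T cell markers of 8 (median -1.32) were called lower. Cardiomyocyte markers had summed levels of 5867 to 8621 FPKM in group Sham, against 1384 to 6766 FPKM in group MI and 5350 to 11261 FPKM in group DAPA, with 0 of 11 highest in the second MI rat, and 3 of 11 were called higher with DAPA and 3 of 11 lower in group MI. Endothelial markers were called lower in group MI in 5 of 7. The hepatocyte gene Alb was at 0 FPKM in 7 of the rats and at most 0.0274 FPKM. The 8 hepatocyte markers summed to 8.9 to 13.5, 2.6 to 16.4 and 11.1 to 24.3 FPKM in the groups in the same order. In the ligated rats most of this sum was from Ttr, with 7.75, 1.70 and 14.4 FPKM in group MI and 22.3, 22.6 and 9.94 FPKM in group DAPA. Of the 8 markers, 5 were under 1 FPKM in all rats. The 8 adipocyte markers summed to 4350 to 6098, 231 to 877 and 697 to 1478 FPKM, nearly all from Fabp4 and Lpl, which other cells of the heart also express and which were called lower in group MI. The other 6 adipocyte markers summed to at most 0.389 FPKM in group Sham, 0.822 to 2.16 FPKM in group MI and 2.89 to 12.9 FPKM in group DAPA, with Adipoq at 0 in every Sham rat and at most 5.96 FPKM. Of these Retn was called higher with DAPA than in group MI (log2 fold change 1.47, limma adjusted p = 0.558), and Fabp4, Lpl and Retn are named after their values were seen. The 8 neutrophil markers summed to 13.7 to 49.2, 18.5 to 71.0 and 13.1 to 178 FPKM. The part of any of these cell types in the complement values was not tested.

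**Figure D4:**
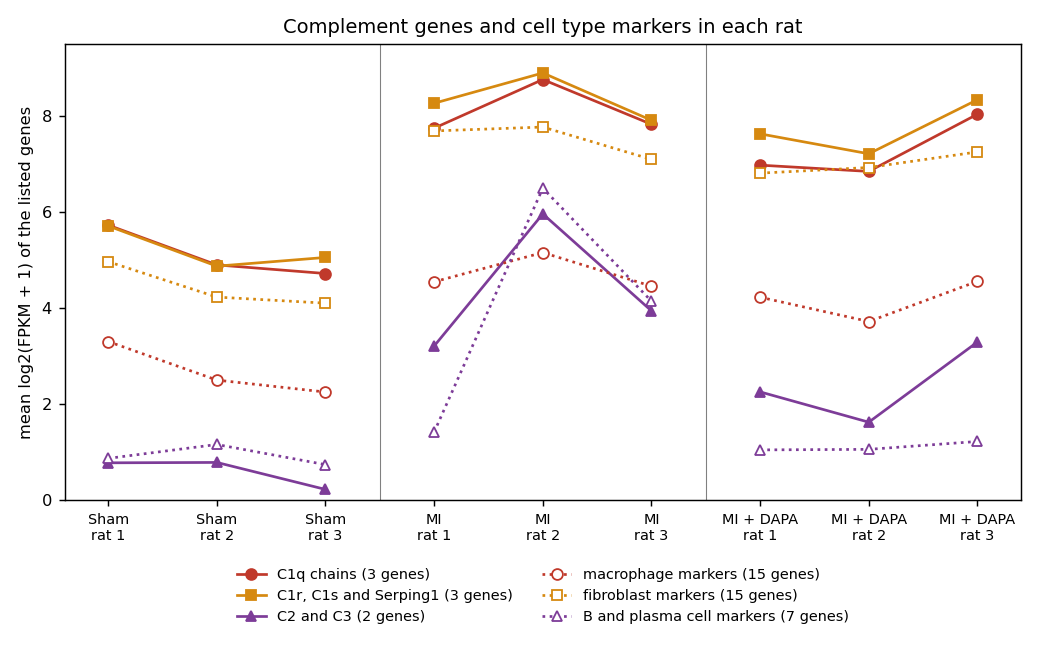
Mean log2(FPKM + 1) of groups of complement genes (filled) and of cell type markers (open) in each of the 9 rats. The second MI rat has the highest mean in all 6 lines, and B and plasma cell markers span 1.42 to 6.50 in group MI, where C2 and C3 span 3.21 to 5.96.

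The genes whose profile over the 9 rats was most like the mean of the 9 members, among 14157 genes and by Pearson's r on log2(FPKM + 1), were Os9, Mfsd1, C4b, Maf and LOC103689965 (r = 0.994 to 0.995). The most like the mean of the C1q chains were Mfsd1, Tbc1d2b, Csf1r, Cybb and Snx29 (r = 0.993 to 0.995). Csf1r encodes the receptor of the macrophage growth factor CSF1, Cybb a subunit of the phagocyte NADPH oxidase, and Maf a transcription factor. Csf1r had 16.4, 8.27 and 6.56 FPKM in group Sham, 51.1, 88.0 and 47.5 FPKM in group MI, and 36.7, 27.5 and 56.8 FPKM in group DAPA, the same highest rat of each group as in C1qa. Among the members themselves, r with the mean of the 9 was 0.8999 for C3 and 0.974 to 0.996 for the other 8. The points share the 3 groups and the depth of each library, and these values describe the 9 rats only.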

How the data were processed

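RNA from the hearts of 9 rats, 3 per group, was poly-A selected and sequenced as paired ends. The authors deposited FPKM values, with 1 column per rat and the number of columns not used being 0. For the processing by the authors, the submitters' processing notes name HISAT2 2.0.5, StringTie 1.3.3b, featureCounts 1.5.0-p3 and DESeq2. Their roles and the genome build are not given in the sources used here, so that genes are identified by name and Ensembl identifier. Samples were grouped by their labels.

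Whole reads were recovered from the steps of the FPKM values in 100% of the 18896 genes above 0 in at least 4 libraries (tolerance 0.001 reads). Since the values are no counts, limma 3.58.1 in R 4.3.3 was fitted on log2(FPKM + 1), with the 2 groups compared in each fit, a variance trend, and genes with at least 1 FPKM in at least 3 rats. A call needed an unadjusted p under 0.05 and a log2 fold change over 1 in either direction, the criteria that the authors used with DESeq2. An exact permutation test of 3 against 3 cannot go below 0.1 and was not used for calls. The fit and the recovery of reads were tested on simulated data. Python 3.11.15, numpy 2.4.6, pandas 2.3.3 and matplotlib 3.10.9 were used for the rest.

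The 9 members, the lists and the tests were chosen with earlier results of these data known. All members were named. Of the other complement genes called in MI vs. Sham or DAPA vs. MI, at most 4 per role were given with values. They were taken by their p in DAPA vs. MI. The 5 genes most like each mean profile were named as well. Markers were to come from the first 3 of each cell type list. Col1a1, Jchain, Fabp4, Lpl and Retn lie outside these and were named with their values seen. Mbl2, Cr1 and Itgam, and the markers Ttn, Pecam1 and Cd79a, were not analysed here. For 1 regulator gene, counted in the totals, the values are not reported here.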

Additional observations from a re-analysis of the deposited data

How the results depend on the processing

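In MI vs. Sham all 9 members were called under each of the alternatives run (a pseudocount of 0.1, no filter, the replicate block, 1 fit of all 9 rats, median-ratio scaling, the mitochondrial genome left out, adjusted p, no fold-change threshold, and each rat left out), and in DAPA vs. Sham in all but 1, the fit of all 9 rats with 8 called, where C3 was not. With DAPA against MI, 1 member was called, which became 2 with all 9 rats in 1 fit (C2 added), 2 with scaling to all recovered reads (C1qb added), which was tried only after seeing the data, 0 with adjusted p, and between 0 and 6 with single rats left out, 0 without the first or the second DAPA-treated rat, 2 without the first or the third MI rat and 6 without the third DAPA-treated rat. No member changed its direction in any of these. Over all genes, 3024 were called in MI vs. Sham, 6389 when scaled to all reads and 6605 with no fold-change threshold. In DAPA vs. Sham the 2364 became 4666 and 5534. With DAPA against MI the 273 became 521 with the mitochondrial genome left out, 0 with adjusted p, 1125 with no fold-change threshold, and 127 to 578 with single rats left out, 127 without the second and 578 without the third MI rat, 158 without the second and 513 without the third DAPA-treated rat. Scaling to all reads moved the median log2 fold change of all genes from -0.01 to 0.92 in MI vs. Sham, to -0.21 with DAPA against MI and to 0.74 in DAPA vs. Sham, and turned the split in MI vs. Sham from 1634 higher and 1390 lower genes to 6099 and 290, in DAPA vs. Sham from 1274 and 1090 to 4433 and 233, and with DAPA against MI from 126 and 147 to 63 and 296. That scaling replaces the divisor of the FPKM values by the recovered reads. Per recovered read the divisor averaged 2.16 in group MI and 1.85 in group DAPA, with group Sham at 1. The shifts of the medians have the direction of these divisors. The cause of the difference in divisors and of the other changes was not tested.

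The replicate numbers are not stated to pair the rats, and rats of the same number did not deviate together (mean correlation 0.02 in MI vs. Sham, -0.18 in DAPA vs. MI and 0.10 in DAPA vs. Sham). With the replicate block, 9, 1 and 9 members and 3044, 217 and 2404 genes were called. Depth limits C2 and C3ar1 in group Sham, where they had 0 to 18 reads.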
